A study of Mus musculus and Rattus norvegicus with 80 samples.

Results

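Isolated non-intact L1 loci of the mouse genome were examined. These are 421 annotated L1 copies, 2.47% of the 17019 L1 cores listed for the mouse, each counted once. They were chosen by annotation alone. A locus was taken when it was listed as full length but non-intact, meaning that its open reading frames are interrupted, when its core measured 4800 to 5100 bp, when it was not on the list of loci with an intact ORF2, and when no other listed L1 core, of any list or strand, started within 250 kb of its own start. The other 10743 non-intact loci of the same length have such a neighbour and are called clustered here. The 421 isolated loci make up 3.77% of the 11164 loci of this length.

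L1 elements are retrotransposons that are copied through an RNA intermediate. A full-length element carries an internal promoter at its 5′ end, followed by ORF1, which encodes an RNA-binding protein, and ORF2, which encodes an endonuclease and reverse transcriptase. A non-intact copy cannot make both functional proteins, but its promoter may still start a transcript, and reads over its body may also belong to a transcript that started elsewhere, for example in a host gene of the same orientation.

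The study collected organs of C57BL/6 mice and sequenced polyadenylated RNA from the cytoplasm as strand-specific read pairs. The 68 mouse libraries come from 21 animals with no genetic modification or treatment named in the labels. Males gave testes and livers at 7.6, 12.8 and 22.3 months (mo) and at 1.9-3.6 mo, with 3 animals per group. Brains (3 and 3) and lungs (2 and 3) were taken at 7.6 and 12.8 mo. Females gave brains, lungs and ovaries at 2.2-3.2 mo (3 animals), 8-8.7 mo (4 animals) and 16.5 mo (2 animals), and uteri at these ages from 1, 3 and 2 of them. The libraries held 8.45 M to 51.39 M mapped reads, of which 9567 to 109959 were on L1 loci. The value of a locus is the number of sense reads in its counting window, with both mates of a pair counted, so most counts are even. Levels are given as FPKM, which takes reads per 6 kb of element and per M of mapped reads, and 3 reads in a library correspond to 0.00973 to 0.0592 FPKM. At 12.8 mo the windows were shorter (300 bp before and 500 bp after the core, in place of 700 and 1000 bp), so tests compare these libraries only among themselves, while counts and ranges over all libraries include them. The tables hold L1 loci and no marker genes, so the labelled organs could not be checked against markers. In whole organs, fewer cells of a type and less RNA per cell cannot be told apart.

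The isolated loci had a median core length of 4993 bp. Their nearest listed neighbour started at a median distance of 377340 bp and at most 6370945 bp away. They lay on 21 chromosomes, with 32 on chromosome 2, 17 on the X and 14 on the Y, and 195 of them on the plus strand. Against the GENCODE annotation (mm10), 75 loci (17.8%) lay in an intron of a gene of the same strand, 112 (26.6%) in a gene of the opposite strand, 233 (55.3%) outside genes and 1 over an exon of its own strand. The clustered loci were less often inside genes, with 7.34% in an intron of the same strand, 13.9% in a gene of the opposite strand and 78.2% outside genes.

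Reads were deposited for 338 of the 421 isolated loci in at least 1 library, and 83 loci (19.7%) had no read in any of the 68 libraries. Among the clustered loci, 33.9% had none. Only reads with a single best place were counted, and the study found that L1 loci differ in how many reads can map to them uniquely. That was not examined here for either kind of locus. A locus without reads is therefore not shown to be silent, and part of a difference between kinds of loci may lie in mapping. In each of the 68 libraries the share of loci with a read was higher among the isolated than among the clustered loci. The same order held within each of the 3 main positions. Of the isolated loci in an intron of the same strand, 96% had a read in some library, beside 89.2% of the clustered ones, and outside genes the shares were 73.8% and 63.3%. In a single library the positions differed more. In testes of 7.6 mo, 45.3% ± 4.00 (SD, n = 3) of isolated loci in an intron of the same strand, 35.4% ± 5.94 of those opposite to a gene and 27.5% ± 4.52 of those outside genes had a read, beside 33.6% ± 5.33, 22.8% ± 3.58 and 18.1% ± 3.57 of the clustered loci. In brains of males of the same age, 20.4% ± 8.88 of the isolated loci in an intron of the same strand, but 2.38% ± 1.86 of those opposite to a gene, had a read. Isolated loci opposite to a gene were there read no more often than clustered ones (3.56% ± 1.14), the only position, among those of testes, brains and ovaries, where the order between isolated and clustered loci was turned.

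**Figure D1:**
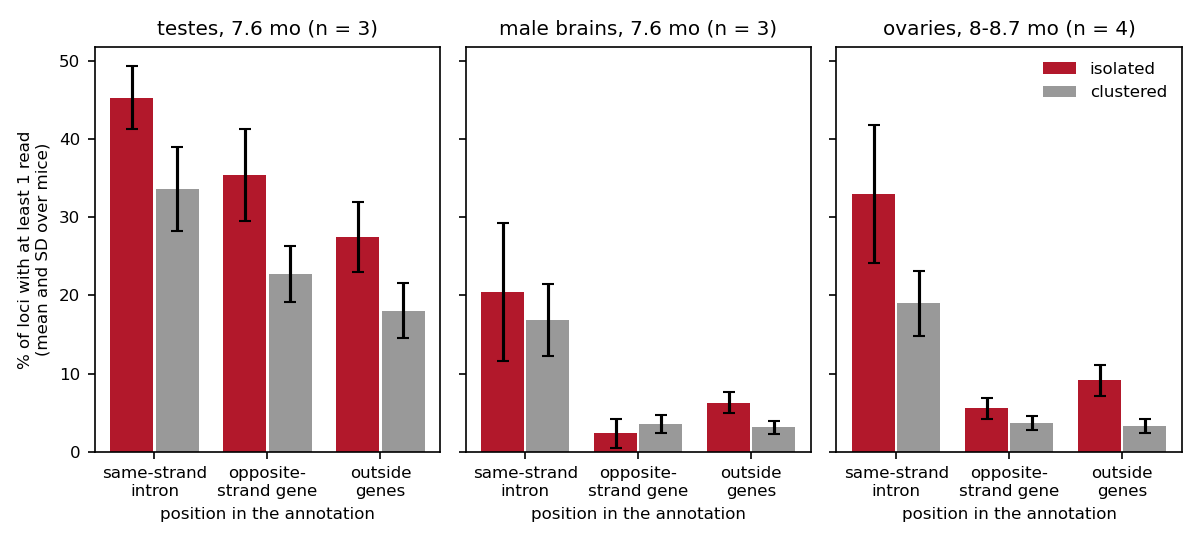
Share of loci with at least 1 read (percent, vertical axis) for isolated and clustered loci of the same length, by position relative to genes, in testes of 7.6 mo, brains of 7.6 mo males and ovaries of 8-8.7 mo. Bars are means and error bars SDs over animals, with every bar starting at 0. In testes all 3 positions lie above their clustered counterparts, whereas in brains and ovaries the intron position stands far above the others.

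A read on more loci did not always mean a higher mean of reads per locus. Averaged over loci, the reads per isolated locus exceeded those per clustered locus in 11 of 12 testes (ratio 0.972 to 1.55). They stayed below them in all 12 livers (ratio 0.0518 to 0.220) and all 14 lungs (0.0839 to 0.738). Brains (7 of 15 libraries above), ovaries (3 of 9) and uteri (1 of 6) lay between. A mean over loci weighs single loci with many reads heavily, on either side. The share of loci with more than 10 reads was higher among the isolated loci in all 12 testes, 15 brains and 9 ovaries. It was also higher in 13 of 14 lungs, 9 of 12 livers and 5 of 6 uteri.

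Testis was the organ with by far the most isolated loci read. The testes of 7.6 mo had reads on 154, 143 and 116 of the 421 loci, the livers of the same mice on 17, 10 and 8, the brains on 45, 24 and 29 and the 2 lungs on 21 each. No liver, brain or lung of that age reached the lowest testis. Summed over the isolated loci, the testes held 10.5 ± 2.78 FPKM (SD, n = 3), the livers 0.412 ± 0.247, the brains 1.08 ± 0.245 and the lungs 1.84 ± 0.142 (n = 2). The testes thus stood 25.4-fold over the livers, 9.68-fold over the brains and 5.68-fold over the lungs. As a share of all L1 reads, the isolated loci held 2.78% ± 0.328 in testes and 0.159% ± 0.1001 in livers, a 17.5-fold ratio. On that scale the testes stood 3.69-fold over the brains and 13.7-fold over the lungs. Without the liver of mouse 1209 the ratio of summed FPKM between testes and livers was 38.8. Since most members had few reads, depth moves these counts. When each library was thinned to the depth of the shallowest, 97.7 loci remained in testes, 18.6 in brains and 18.9 in lungs. The thinning treated the mates of a pair as separate draws, so these numbers are too high.

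In females, ovaries of 8-8.7 mo had reads on 52, 59, 61 and 37 loci, brains on 39, 26, 45 and 37, lungs on 37, 38, 34 and 26, and the 3 uteri on 32, 33 and 9. The ranges of ovaries and brains overlap. Over the 3 ages, the ovaries had 32.3 ± 11.1, 52.3 ± 10.9 and 66.5 ± 9.19 loci with a read, and summed levels of 1.79 ± 1.14, 2.82 ± 1.68 and 4.44 ± 0.823 FPKM. The female brains had 35.0 ± 8.72, 36.8 ± 7.93 and 57 ± 1.41 loci with a read. Uteri of 16.5 mo held 4.51 ± 1.87 FPKM (n = 2), those of 8-8.7 mo 1.38 ± 1.00 (n = 3) and the single one of 2.2-3.2 mo 0.766. Among the testes, the numbers were 142.7 ± 23.0, 137.7 ± 19.6 and 140.3 ± 10.8 loci at 1.9-3.6, 7.6 and 22.3 mo, which differ by less than the spread between animals.

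**Figure D2:**
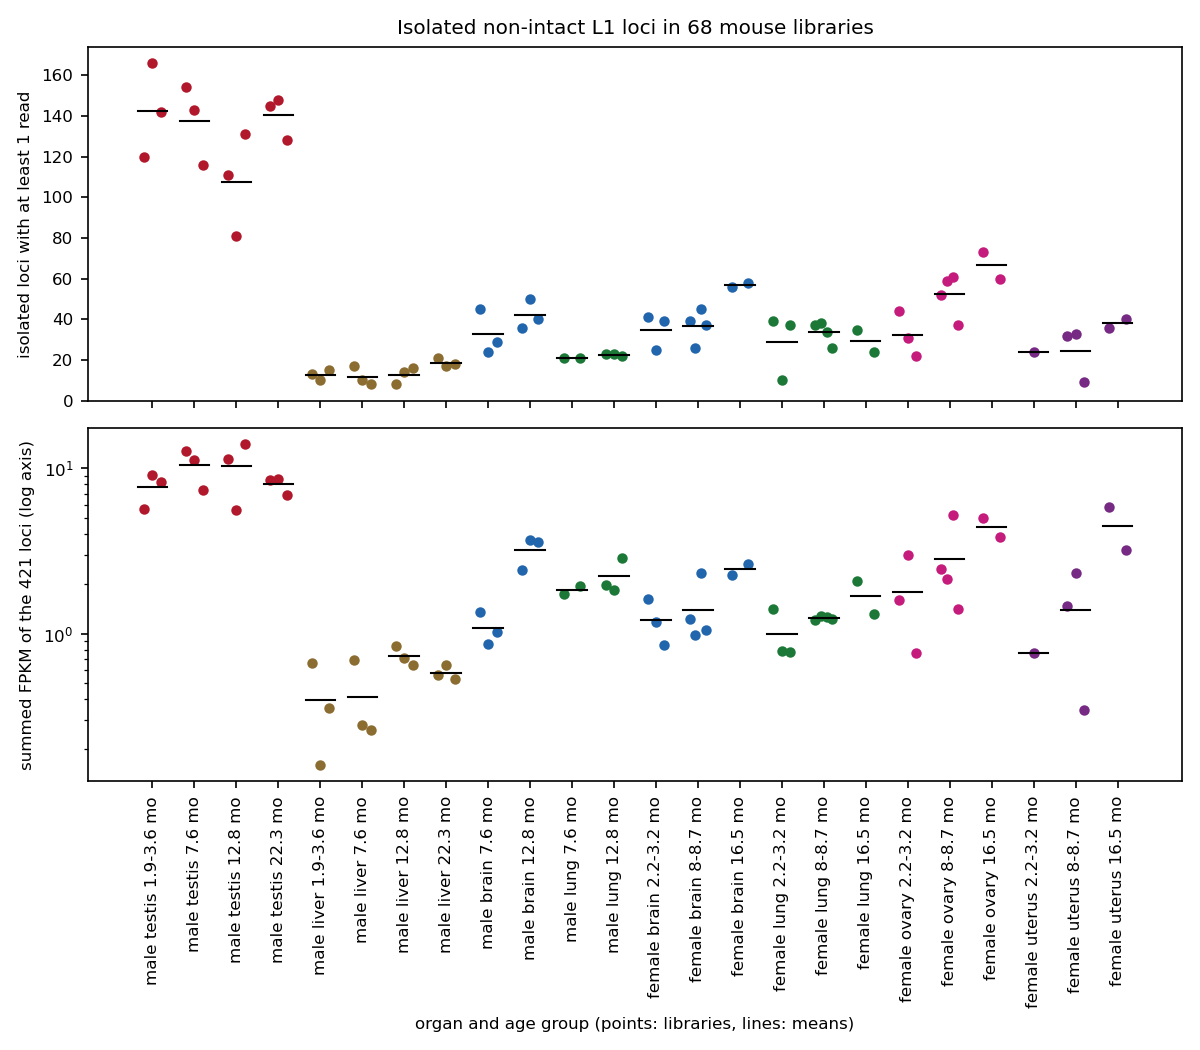
Isolated L1 loci with at least 1 read (of 421) and their summed level (FPKM, log axis) in each of the 68 libraries, by organ, sex and age group. Each point is a library. In number of loci all 12 testes, with 81 to 166, lie above every other library, the highest of which is an ovary of 16.5 mo with 73, whereas by summed level a uterus of 16.5 mo (5.82 FPKM) lies above the 2 lowest testes (5.57 FPKM, with the shorter windows of 12.8 mo, and 5.69 FPKM).

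Of the 421 loci, 114 had reads in testes alone, 43 had reads in some organ but in no testis, and 28 were read in all 6 organs. None was read in every library. Only 17 were read in at least 34 of the 68 libraries. A total of 110 loci reached more than 10 reads in some library and 36 more than 30. Testis was the organ with the highest mean level for 70 of these 110, ovary for 12, brain and lung for 11 each, uterus for 4 and liver for 2. The 110 held 40 loci in an intron of the same strand, 25 opposite to a gene and 45 outside genes. The 25 opposite to a gene were nearly all testis loci, with 22 of them highest there. The study inspected loci and listed those it judged to be transcribed from the L1 promoter. That list holds 38 of the 421 isolated loci (9.03%), beside 4.88% of the clustered ones. Of the 38, 4 lie in an intron of the same strand, 14 opposite to a gene and 20 outside genes, and 0 were listed for liver. Reads on a locus named here do not by themselves show a transcript from its own promoter.

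One locus carried much of the testis signal. UID-6930 (chr14:33614949-33619861, plus strand) lies in an intron of Ptpn20, a gene for a protein tyrosine phosphatase, and its counting window also holds an exon of that gene. The testes of 7.6 mo had 886, 697 and 424 reads there, the livers of the same mice none, the brains 2, 0 and 2 and the lungs 6 and 2. Every testis of every age had at least 138 reads on it, and no other library more than 38. It made up 30.8 to 33.0% of all reads of isolated loci in the testes of 7.6 mo, and the 10 highest loci together 57.3 to 58.0%. At the other end, loci with 1 or 2 reads were 32.2 to 42.2% of the loci read in these testes. The level of UID-6930 in testes of 7.6 mo was 3.29 ± 0.771 FPKM (SD, n = 3). Against the livers it was at least 421-fold higher (log2 fold change 12.06 ± 0.72 (SE), adjusted p = 5.30e-57, quasi-likelihood test of edgeR, Benjamini-Hochberg adjustment over all loci tested). This and the other bounds on folds count 3 reads over the whole group without reads. Both mates of a pair are counted, so 3 reads are fewer than 3 pairs. Bounds that count 3 pairs would be lower than each of those given.

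In the comparison of testes with livers at 7.6 mo, 26 of the 421 isolated loci had the 10 reads in 3 libraries needed for the test. Of these, 25 passed through testes alone, so the filter favoured their difference, and 25 were higher in testes and 0 lower. Of all L1 loci tested, 92.3% were higher in testes and 5.49% lower, and the median log2 fold change was 7.10 for the isolated loci and 7.47 for all loci. In 22 of the 25 the livers had no read. The exception was UID-7001, with 18, 0 and 16 reads in testes and 21, 0 and 5 in livers (log2 fold change -0.30 ± 0.573 (SE), adjusted p = 0.609 in edgeR's test). Its direction rested on single libraries, with 1.40 without the liver of mouse 1209 and 0.28 without the testis of mouse 1303, and scaling on the L1 reads called it lower in testes (-1.73, adjusted p = 0.0107 in edgeR). The share of isolated loci higher in testes was thus near that of all L1 loci tested. Other scalings moved the median of all loci in this comparison, by -0.38 with scaling on the summed L1 reads (TMM) and by -1.47 with DESeq2, and the same 25 isolated loci were higher in testes in both.

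The loci next in level lay outside genes or opposite to one. UID-2095 (chr15:11918884-11923873, plus strand) lies 11420 bp beyond Gm5144, a non-coding gene of the same strand. It had 128, 150 and 61 reads in testes of 7.6 mo, none in the livers, 6, 0 and 4 in the brains and 6 and 2 in the lungs, so the testes did not overlap the other organs. Testes exceeded livers at least 71.2-fold (adjusted p = 1.21e-17, edgeR's test). UID-401 (chr2:74585342-74590309, plus strand) lies 798 bp beyond the antisense gene 4930445N08Rik and had 117, 66 and 62 reads in the testes of 7.6 mo. It was read in all 12 testes, with 54 to 124 reads, and in none of the 56 other libraries. UID-9367 (chr1:92965695-92970647, minus strand) lies opposite to Gpr35, a gene for a G protein-coupled receptor. It had 106, 86 and 36 reads in testes of 7.6 mo and, outside testes, 6 reads in 2 female lungs.

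Weaker loci were also read mainly in testes, some of them in testes alone. UID-7155 (chr14:20949131-20954064, minus strand), opposite to Vcl, the gene of the cytoskeletal protein vinculin, had 20 to 68 reads in each of the 12 testes and none elsewhere. UID-1253 (chr9:83738972-83743909, minus strand), outside genes and 34783 bp beyond the fatty acid elongase gene Elovl4, had 10 to 70 reads in each testis and none elsewhere. Both were read at each of the 4 ages. UID-11012 (chr12:26582828-26587725, minus strand), in an intron of the non-coding gene 1700020D12Rik, varied more, with 107, 21 and 16 reads in testes of 7.6 mo, and had 2 reads in each of 2 brains. UID-10500 (chr10:76519847-76524832, minus strand), near but outside Mcm3ap, a gene for an mRNA export factor on the opposite strand, had 64, 31 and 26 reads there and none in the livers, brains or lungs of these mice, with at most 2 reads in 6 other libraries. UID-9353 (chr1:155264074-155268992, minus strand), 6709 bp beyond Xpr1, the gene of a phosphate exporter, had 35, 18 and 14, and was read in 16 libraries outside testes with at most 10 reads. UID-5571 (chr5:30050375-30055331, plus strand), 2871 bp from the thymidylate synthase gene Tyms and outside it, had 27, 23 and 10 in testes of 7.6 mo, and in uteri it was uneven, with 30, 0 and 0 reads at 8-8.7 mo and 0 and 33 at 16.5 mo.

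UID-5901 (chr3:96861856-96866805, plus strand) was a testis locus that was also read in livers. It lies in an intron of Pdzk1, which encodes a scaffold protein that binds membrane transporters. Testes of 7.6 mo had 102, 70 and 42 reads and livers 8, 0 and 3, a 12.3-fold difference in summed reads per mapped read (log2 fold change 3.52 ± 0.669 (SE), adjusted p = 1.71e-07, edgeR's test). At 22.3 mo the testes had 22, 50 and 50 reads and the livers 12, 26 and 44, and the 2 organs overlapped (log2 fold change 0.58 ± 0.476, adjusted p = 0.257, edgeR's test). The direction depended on the scale, with -0.71 on the L1 reads and -0.13 in DESeq2, and without the liver of mouse 831 the testes were higher (1.17, adjusted p = 0.0312 in edgeR). At 12.8 mo they overlapped too, with 108, 24 and 73 reads in testes and 16, 14 and 34 in livers (adjusted p = 0.0852 in edgeR, and 0.00198 without the testis of mouse 900). Whether the difference between organs itself changed with age was not tested.

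The comparison with livers was similar in number at the other ages. At 12.8 mo, 15 of 17 isolated loci tested were higher in testes (85.9% of all loci tested, with 6.95% lower), and at 22.3 mo 25 of 28 (91.2%, with 5.63% lower). None of the isolated loci was lower at either age. Again 15 of the 17 and 26 of the 28 passed the filter through 1 organ alone. Median log2 fold changes were 7.24 for the isolated loci and 7.60 for all loci at 12.8 mo, and 7.57 and 7.43 at 22.3 mo. For UID-6930 the bound was 282-fold at 12.8 mo and 395-fold at 22.3 mo.

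Against brains at 7.6 mo, 24 of 27 isolated loci tested were higher in testes (82.9% of all loci tested) and 1 was lower (9.3%). Of the 27, 25 had passed the filter in 1 organ alone. With scaling on the L1 reads 3 were lower, and with DESeq2 2 were. The 1 lower on mapped reads was UID-137 (chr2:178043512-178048418, plus strand), which lies outside genes, 9490 bp beyond the zinc finger gene Zfp971. It had 10, 10 and 4 reads in testes and 68, 24 and 18 in brains (log2 fold change -1.98 ± 0.675 (SE), adjusted p = 0.00384, edgeR's test). The ranges did not overlap, but without the brain of mouse 1209, which had the 68 reads, the adjusted p was 0.0643. Against lungs of 7.6 mo, 37 of 42 isolated loci tested were higher in testes (87.8% of all) and 1, UID-6386, was lower (5.35%), and 40 of the 42 had passed the filter in 1 organ alone. With the animal as a replicate block, which leaves out testis 1305 because that mouse gave no lung, 9 of 39 were higher and UID-6386 was lower, and 26.3% of all loci tested were called.

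**Figure D3:**
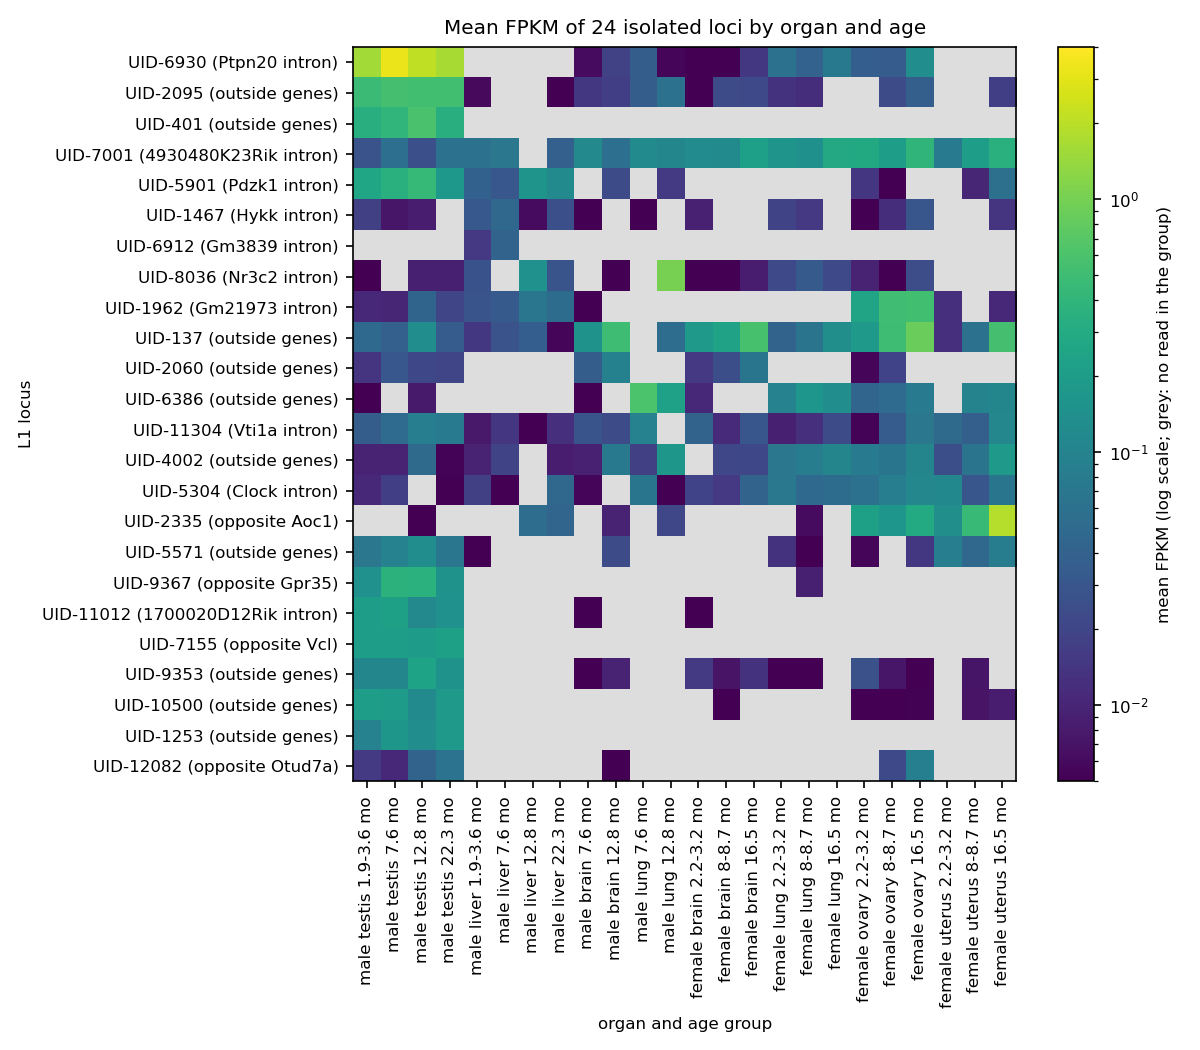
Mean level (FPKM, log colour scale) of 24 named isolated loci in rows and 24 organ and age groups in columns. Grey marks groups without a read, and values below the lowest value of the colour bar are drawn at it. A block of rows is coloured in the 4 testis groups alone or nearly so, UID-137 stands out in brains and ovaries, UID-1962 does in ovaries and UID-2335 in uteri, and UID-7001 is coloured in every group but 12.8 mo livers.

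In brains UID-137 had the most reads of any isolated locus in 6 of the 15 libraries, and 1 other locus did in the other 9, among them all 6 male brains. Female brains had 38, 10 and 60 reads on it at 2.2-3.2 mo, 56, 42, 73 and 30 at 8-8.7 mo and 146 and 124 at 16.5 mo, with 0.945 of its window covered in the brain of mouse 1004.

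In ovaries of 8-8.7 and 16.5 mo UID-1962 and UID-137 led, and at 2.2-3.2 mo UID-7001 had the highest mean (0.287 ± 0.304 FPKM, SD, n = 3). At that age UID-7001 had the most reads of any isolated locus in the ovary of mouse 1535 alone. In the ovaries of mice 1534 and 1540 UID-2335 did, with a mean of 0.225 ± 0.0245 FPKM over the group. UID-1962 (chr15:10351515-10356497, plus strand) lies in an intron of Gm21973, an annotated protein-coding gene. The ovaries of 8-8.7 mo had 92, 38, 292 and 14 reads, a spread of 0.519 ± 0.574 FPKM (SD, n = 4), while the brains, lungs and uteri of that age had none. Ovaries were at least 153-fold higher than brains (log2 fold change 9.78 ± 1.37 (SE), adjusted p = 2.95e-05) and at least 115-fold higher than lungs (adjusted p = 0.000223), and uteri were at least 82.3-fold lower than ovaries (adjusted p = 0.00380, all edgeR's test). In each of these comparisons UID-1962 passed the filter through ovaries alone, so the filter favoured its difference. Ovaries of 2.2-3.2 mo had 24, 42 and 6 reads on this locus and those of 16.5 mo 117 and 98. It was also read in livers, at 0 to 24 reads. UID-137 had 93, 88, 215 and 26 reads in the ovaries of 8-8.7 mo and 10, 19, 6 and 8 in the lungs, so the ovaries were higher (7.79-fold in summed reads per mapped read, log2 fold change 2.92 ± 0.656 (SE), adjusted p = 0.00225, edgeR's test).

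In the comparison of ovaries with brains, 6 isolated loci were tested, 3 of which had passed through 1 organ alone. UID-1962 was higher in ovaries (37.1% of all loci tested were) and 1 other locus lower (20.7%). The medians were 0.16 for the isolated loci and 0.78 for all. Normalisation moved the split of calls, since 64.2% of all calls were higher in ovaries with mapped reads, 42.4% with scaling on the L1 reads and 48.6% with DESeq2. With the animal as a replicate block, UID-137 was also higher (0.90, adjusted p = 0.0245 in edgeR) and UID-11006 lower (-2.49, adjusted p = 0.00204). In that fit 68.1% of all loci tested were called. UID-11006 missed the threshold without the block (-2.03, adjusted p = 0.0548 in edgeR), passed it with scaling on the L1 reads (-2.89, adjusted p = 0.000434) and was named after its values were seen. Against lungs, 2 of 8 isolated loci tested were higher in ovaries (26.2% of all), namely UID-1962 and UID-137, and 0 were lower (15%). UID-6386 was lower in ovaries in the fit with the replicate block (-2.04, adjusted p = 0.0227 in edgeR) and with scaling on the L1 reads (-1.88, adjusted p = 0.0183), and missed the threshold on mapped reads without the block (-1.68 ± 0.761, adjusted p = 0.0879).

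Between uteri and ovaries of 8-8.7 mo, 3 of 11 isolated loci tested were lower in uteri (25.2% of all loci tested) and 0 higher (3.94%). UID-1962 and UID-137 were among them. Of the 11, 10 had passed the filter in 1 organ alone, and 2 of the 3 called had no read in uteri. UID-137 had 12, 14 and 4 reads in uteri (-2.98 ± 0.885, adjusted p = 0.0241 in edgeR) and lost its call without any 1 of the ovaries of mice 1337, 1338 and 1324 or the uterus of mouse 1338 (adjusted p = 0.0694 to 0.0891). With the replicate block over the 3 animals with both organs, 7 isolated loci were tested and 2 were called, beside 29.0% of all loci tested. Of all calls, 13.5% were higher in uteri with mapped reads and 37.2% with scaling on the L1 reads.

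The leading uterus locus passed no test there. UID-2335 (chr6:48880521-48885427, minus strand) lies opposite to Aoc1, the gene of diamine oxidase, which degrades histamine. Uteri of 8-8.7 mo had 88, 143 and 6 reads and ovaries 2, 51, 34 and 53, which overlap (log2 fold change 1.45 ± 0.974 (SE), adjusted p = 0.250, edgeR's test). The uteri of 16.5 mo had 343 and 172 reads, 1.92 ± 1.45 FPKM (n = 2), and fractions of 0.937 and 0.826 of the window were covered. Reads of this locus were 28.1 to 50.6% of all reads of isolated loci in 4 of the 6 uteri. No brain but that of mouse 899, with 4 reads, was among the 26 libraries that read it.

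In lungs, UID-6386 (chr3:103505891-103510872, plus strand), which lies outside genes and 60091 bp from the nearest one, was the leading locus outside genes. Male lungs of 7.6 mo had 52 and 76 reads, while the testes and livers of that age had none and the brains 0, 0 and 2. Testes were at least 118-fold lower than lungs (log2 fold change -9.61 ± 1.1 (SE), adjusted p = 1.83e-16, edgeR's test). UID-6386 passed the filter there through lungs alone, so the filter favoured its difference. Female lungs of 8-8.7 mo had 18, 32, 32 and 28 reads, and 1 uterus of that age had 61 while the other uteri had 2 and 0. UID-8036 (chr8:77070787-77075880, plus strand) lies in an intron of Nr3c2, the gene of the mineralocorticoid receptor. The 3 male lungs of 12.8 mo had 90, 100 and 210 reads, 1.01 ± 0.494 FPKM (n = 3), the 2 male lungs of 7.6 mo none, and the 9 female lungs 0 to 20. The windows of 12.8 mo were the shorter ones. The labels give no sequencing run, so age and run cannot be told apart.

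Livers had few isolated loci with reads. The highest counts belonged to loci of other organs, such as 48 reads of UID-8036 in a liver of 12.8 mo and 44 of UID-5901 in a liver of 22.3 mo. UID-6912 (chr14:11310708-11315593, minus strand), in an intron of Gm3839, was read in livers alone, in 5 of 12 libraries and with at most 8 reads. UID-1467 (chr9:54923445-54928442, plus strand), in an intron of the hydroxylysine kinase gene Hykk, had 14, 4 and 0 reads in livers of 7.6 mo and at most 17 anywhere.

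A few loci were read in many organs at low levels. UID-7001 (chr14:69749921-69754917, plus strand), in an intron of the non-coding gene 4930480K23Rik, was read in 61 of the 68 libraries. It had no read in livers of 12.8 mo, and its mean level in the other groups ran from 0.0253 FPKM in testes of 12.8 mo to 0.398 ± 0.0933 FPKM in ovaries of 16.5 mo (n = 2), where 98 and 64 reads covered fractions of 0.660 and 0.476 of the window. It passed no organ comparison on mapped reads, while scaling on the L1 reads called it lower in testes than in brains of 7.6 mo (-1.97, adjusted p = 0.00821 in edgeR), as did the fits without brain 1303 (adjusted p = 0.0202) or testis 1305 (adjusted p = 0.0292). Against lungs of 7.6 mo, which had 27 and 0 reads, 1 library decided the direction. Testes were lower without lung 1303 (-2.05, adjusted p = 0.0204 in edgeR) and higher without lung 1209 (6.34, adjusted p = 0.0260), where the remaining lung is at 0, so that this fold change is no bound. In such a fit the lone lung is assumed to vary like the testes. UID-5304 (chr5:76218277-76223315, minus strand), in an intron of the circadian gene Clock, was read in 47 libraries with at most 45 reads, and UID-11304 (chr19:55433779-55438808, plus strand), in an intron of the vesicle fusion gene Vti1a, in 52 with at most 36. The same lungs had 22 and 0 reads on UID-11304, and testes were lower without lung 1303 (-1.89, adjusted p = 0.0410 in edgeR) and higher without lung 1209 (6.20, adjusted p = 0.0361). UID-4002 (chrX:94765906-94770827, plus strand), outside genes and 1792 bp from the pseudogene Gm7061, was read in 50 libraries and mostly in lungs, ovaries and uteri, with 12, 12, 12 and 18 reads in lungs of 8-8.7 mo. UID-2060 (chr15:11618761-11623768, minus strand), 1329 bp beyond the non-coding gene Gm49106, was read in brains (12, 4 and 8 reads in males of 7.6 mo) and testes (4, 8 and 6) and in no lung, liver or uterus. It lies 300123 bp from UID-2095, and each is the other's nearest listed L1.

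Ages were compared in testes, ovaries and female brains. Comparing testes of 7.6 with those of 1.9-3.6 mo, 0 of 41 isolated loci tested were called by edgeR, as were 0 of all 756 loci (0%). The unadjusted p of edgeR was under 0.05 for 3 of the 41 and 55 of the 756. DESeq2 called 3 of all loci and 1 isolated locus. The median log2 fold changes were 0.37 and 0.32. That 1 was UID-6930, with 307, 440 and 352 reads at 1.9-3.6 mo and 886, 697 and 424 at 7.6 mo, a 2.15-fold difference in summed reads per mapped read (log2 fold change 1.06 ± 0.320 (SE), adjusted p = 0.311 in edgeR and 0.0327 in DESeq2). Comparing 22.3 with 7.6 mo, 0 of 44 isolated loci were called and 0.262% of all loci, with 8 of the 44 at an unadjusted p under 0.05, and DESeq2 called 1, again UID-6930. It had 395, 405 and 362 reads at 22.3 mo (-0.96 ± 0.246, adjusted p = 0.0891 in edgeR and 0.0149 in DESeq2). Without the testis of mouse 1305, UID-6930 (-1.14, adjusted p = 0.00636 in edgeR), UID-9367 (-1.53, adjusted p = 0.0241) and UID-5133 (-2.04, adjusted p = 0.0496) were lower at 22.3 mo, and without that of mouse 831 UID-7902 was higher (2.48, adjusted p = 0.0336). The last 2 names were chosen after their values were seen. Of all loci called in this comparison, 0% were higher at 22.3 mo with mapped reads and 45.5% with DESeq2. Both comparisons share the testes of 7.6 mo.

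**Figure D4:**
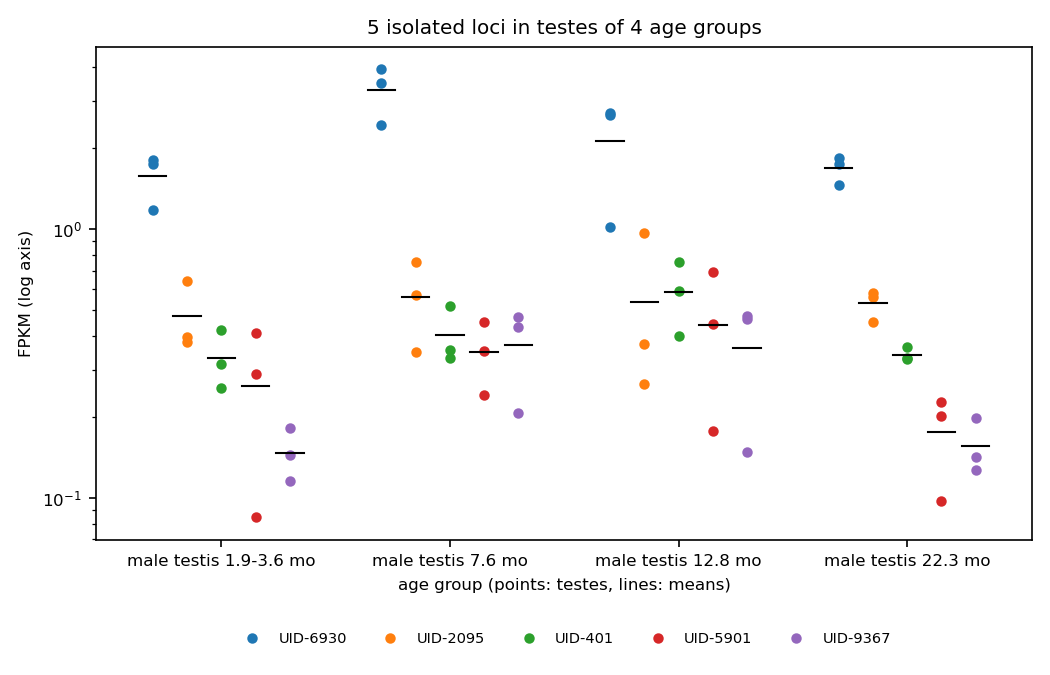
Level (FPKM, log axis) of UID-6930, UID-2095, UID-401, UID-5901 and UID-9367 in the testes of 4 age groups, with a point for each of 3 animals. UID-6930 lies above the other 4 in each age group, and its values at 7.6 mo do not overlap those at 1.9-3.6 mo or 22.3 mo. Windows were shorter at 12.8 mo.

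In ovaries of 16.5 against 2.2-3.2 mo, 1 of 15 isolated loci tested was higher and none lower, beside 4.81% of all loci. Of the 15, 9 had passed the filter at 1 age alone. The locus called was among them and passed through the ovaries of 16.5 mo, so the filter favoured its difference. UID-12082 (chr7:63689124-63694096, minus strand), opposite to Otud7a, a gene for a deubiquitinating enzyme, had 14 and 22 reads at 16.5 mo and none at 2.2-3.2 mo (at least 14.9-fold, log2 fold change 7.04 ± 1.67 (SE), adjusted p = 0.0487, edgeR's test). It was not called with scaling on the L1 reads, with DESeq2 or without the filter, nor when any 1 of the ovaries of mice 1535, 1540, 1004 and 1006 was left out. The median was 1.70 for the isolated loci and 1.62 for all loci tested, and scaling on the L1 reads lowered the latter by 1.30, so the median difference depends on the scale. All calls were higher at 16.5 mo with mapped reads and 15.4% of them with DESeq2. UID-137 had 32, 24 and 12 reads at 2.2-3.2 mo and 254 and 106 at 16.5 mo (2.25 ± 0.963, adjusted p = 0.184 in edgeR). In female brains of the same ages, 0 of 6 isolated loci and 0 of all 174 (0%) were called by edgeR, and DESeq2 also called 0. The unadjusted p of edgeR was under 0.05 for 37 of the 174 and for 1 of the 6. The 1 was UID-137 (1.58 ± 0.563, adjusted p = 0.169 in edgeR), which did not overlap between the ages and was called without the brain of mouse 1534 (1.93, adjusted p = 0.0493).

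Between the sexes, brains of females (8-8.7 mo) and of males (7.6 mo) could be compared. None of the 5 isolated loci tested was called by edgeR or DESeq2, while edgeR called 3.42% of all loci higher and 7.53% lower in females. None of the 5 had an unadjusted p under 0.05 in edgeR, beside 38 of all 146. Of all calls, 31.2% were higher in females with mapped reads and 55% with DESeq2. Sex, the slightly different age and the sequencing run, which the labels do not give, cannot be told apart here. The 14 isolated loci on the Y chromosome had 2 reads in all, on 1 locus in a testis, and no read in other male organs. In the 33 female libraries they had 0 of 11668 reads of isolated loci. A floor of 3 reads allows a share of 0.0257% by counting error alone, and a floor of 3 pairs would allow more. All 654 L1 cores on the Y together had 71 of 791823 L1 reads in these libraries, or 0.00897%. How many reads can map uniquely to loci on the Y was not examined.

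The deposited files also give the breadth of coverage. For 25 isolated loci with at least 10 reads in each testis of 7.6 mo, the fraction of the window covered by reads ran from 0.108 to 0.949 with a median of 0.244, and it exceeded 0.5 at 4 of them. UID-6930 had 0.949 ± 0.0144 (SD, n = 3), UID-2095 0.598 ± 0.118, UID-401 0.593 ± 0.0990 and UID-5901 0.501 ± 0.164. UID-9367 followed with 0.484 ± 0.128. The fraction grows with the number of reads, and the order of the loci was largely that of their counts. Stretches to which no read maps uniquely cannot be covered, and their share of each window was not examined. By position, the median was 0.303 for 7 loci in an intron of the same strand, 0.243 for 11 outside genes and 0.165 for 7 opposite to a gene.

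**Figure D5:**
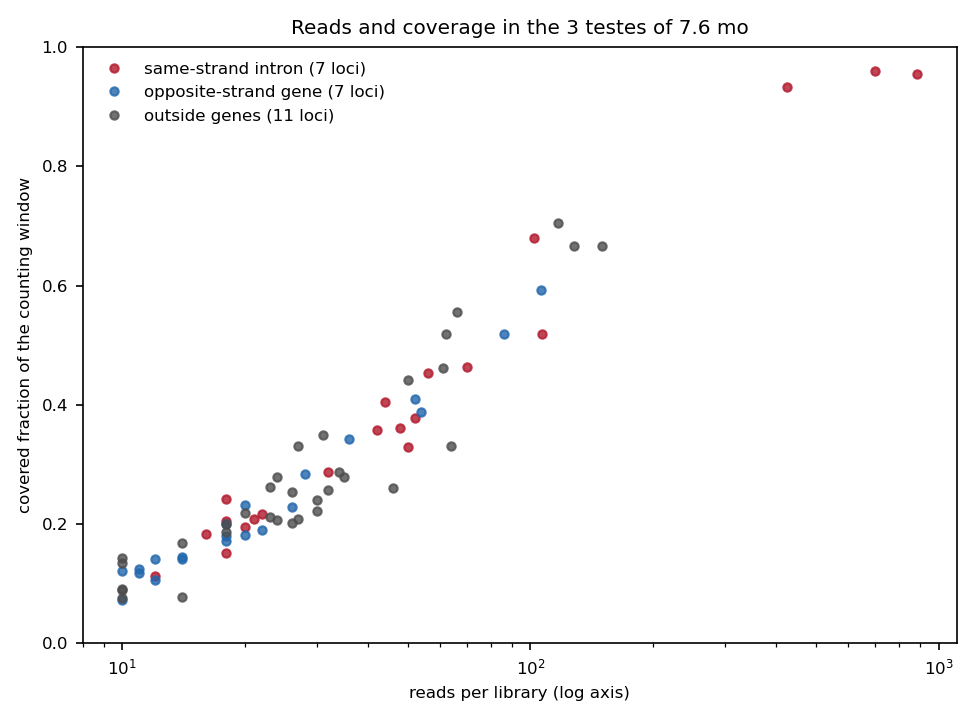
Covered fraction of the counting window (vertical axis) against reads (log axis) for 25 isolated loci in the 3 testes of 7.6 mo, coloured by position relative to genes, with a point for each locus and testis. The 3 points of UID-6930, at 424 to 886 reads, lie between 0.932 and 0.959, and UID-9410, with 10 reads in each testis, has the lowest mean, 0.108.

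Outside testes, the median covered fraction of isolated loci with more than 10 reads was 0.299 in ovaries and 0.309 in female brains of 8-8.7 mo, 0.328 in uteri, 0.194 in male brains and 0.127 in livers. Male lungs of 7.6 mo had 0.0384, from 4 and 3 loci, beside 0.174 in female lungs. For loci with more than 30 reads the values were 0.193 and 0.293. The study used different sequencing methods with reads of different lengths, and the labels do not give the method of a library. The part of read length in these fractions was not tested. In all libraries there were 20 cases of more than 10 reads covering less than 0.05 of a window, and all were in male libraries, 13 of them at 12.8 mo. A given covered stretch is a larger fraction of the shorter windows of 12.8 mo. UID-5304 and UID-7001 accounted for 7 of the 20 cases. In the lung of mouse 1209, for example, 27 reads of UID-7001 covered 0.0311 of the window, whereas 27 reads in the brain of mouse 1337 covered 0.306. The part of duplicate reads in these cases was not tested.

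Loci near the thresholds of the choice were read as follows. The 3 loci just inside 250 kb (UID-641, UID-3348 and UID-6695, nearest core at 250351 to 250390 bp) had no read in any library. Of the 3 just outside (248846 to 249738 bp), UID-1922 had none, UID-13731 at most 4 and UID-13734 at most 16. At the lower length limit, UID-9882 (4800 bp) had at most 8 reads and UID-1584 (4801 bp) at most 16 inside, and UID-11289 (4791 bp) had none and UID-6953 (4797 bp) at most 22 outside. At the upper limit, UID-13340 (5093 bp) had at most 2 and UID-8036 (5094 bp) at most 210 inside, and UID-9232 (5110 bp) at most 10 and UID-10683 (5119 bp) at most 20 outside.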

How the data were processed

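Cytoplasmic polyadenylated RNA of mouse organs was sequenced as strand-specific pairs. Per the study's methods, the authors aligned reads to mm10 with Bowtie, kept concordant pairs with a single best place, removed duplicates and counted sense reads in each L1 window with bedtools, so the deposited values are raw counts per locus, made before any inspection of where a transcript starts. The deposited fraction of each window covered by reads was made in the same step. The file name of the plus strand of the brain of mouse 1325 does not mention duplicate removal. Its reads and the study's FPKM gave the same number of mapped reads at 8 of 15 listed loci. The brains of mice 1337, 1338 and 1324 did so at 20 of 20, 19 of 19 and 31 of 31. Loci of the plus strand held 61.9% of its L1 reads and 53.4 to 54.2% of theirs. Whether duplicates remain in this library was not tested, and it enters the comparisons of ovaries with brains and of female with male brains.

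Mapped reads were recovered from reads and FPKM tabulated by the study (relative tolerance 0.0002), less surely for 3 lungs of 12.8 mo and the livers of mice 900 and 1110. At 22.3 mo these columns were joined by their counts, since most animal numbers did not match them. Columns under 2 animal numbers that the labels do not hold were taken as mice 1110 and 1209, where the counts matched 293 of 294 listed loci in the testis of mouse 1110, 1 of 1 in its liver, 27 of 27 in the brain and 20 of 20 in the lung of mouse 1209. Gene positions come from GENCODE M21 on GRCm38. Counts of all L1 loci, each core once, were compared with edgeR 4.0.16 (glmQLFTest, R 4.3.3), with mapped reads as library size. A locus was tested with 10 or more reads in a number of libraries equal to the size of the smaller group, and called at a Benjamini-Hochberg adjusted p under 0.05. SE is the log2 fold change over the square root of F. By the labels, replicates are separate animals, and organs of 1 number are of 1 animal, which is less sure at 22.3 mo, where the numbers and columns disagree. Deviations of organs of 1 animal correlated at -0.0833 to 0.415. Alternatives were TMM on the L1 reads, DESeq2 1.42.0, no filter, leaving out each library and the animal as a replicate block. The code was tested on simulated counts. Python 3.11.15, numpy 2.4.6, pandas 2.3.3, scipy 1.17.1 and matplotlib 3.10.9 were used.

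Loci are named when they are among the 3 with the highest mean in a group, among the 5 with the largest non-overlapping called change in a comparison, among the 5 with the highest covered fraction in testes of 7.6 mo, or nearest to a threshold. The results of 2 such loci are not reported here. The loci, lists and tests were chosen with earlier results of these data known. Floors cover counting error only and take the mates of a pair as separate reads. Rat libraries were not used here.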

Additional observations from a re-analysis of the deposited data

Results flagged for a closer look

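A total of 3 values stood apart by fixed rules. In groups of 4 animals, a library was singled out when its gap to the nearest other, relative to the range, passed Dixon's critical value, which chance does in about 1 of 20 groups. Of 24 such groups of values, 2 had one, both for a named locus. The 24 held levels of named loci and also measures over all isolated loci, such as their summed level. UID-4002 had 0.116 FPKM in 1 lung of 8-8.7 mo, above the other 3 lungs. UID-7001 had 0.443 FPKM in 1 ovary of 8-8.7 mo, above the other 3 ovaries. Both are the highest value of their group and rest on single animals.

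Among 910 comparisons of direction over the 26 loci that meet the rule for names, 1 had every animal of an age moving against every animal of another. UID-11304 was lower in ovaries than in brains at 2.2-3.2 mo, by -0.0368 FPKM in the mean of 3 animals, and higher in ovaries at 16.5 mo in both animals. This difference between ages was not tested, and the reads behind it are few (3, 0 and 0 in the ovaries against 8, 4 and 10 in the brains, then 21 and 8 against 6 and 8).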

How the results depend on the processing

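Among the loci whose fold changes are given, the direction turned for 3, in comparisons where none of them was called on mapped reads. Leaving out each library in turn gave -0.91 to 1.40 for UID-7001 in testes against livers of 7.6 mo, -2.05 to 6.34 against lungs (6.34 without lung 1209) and -1.89 to 6.20 for UID-11304 against lungs (6.20 without lung 1209). UID-11304 was at 0.18 with the replicate block, and UID-5901 in testes against livers of 22.3 mo at -0.71 with TMM on L1 reads and -0.13 with DESeq2. The filter on low counts sets how many loci are tested. Without it, testes differed from livers at 57 (7.6 mo), 43 (12.8 mo) and 81 (22.3 mo) isolated loci and from brains at 62, ovaries from brains at 16 and from lungs at 7, testes of 22.3 from 7.6 mo at 1 and ovaries of 16.5 from 2.2-3.2 mo at 0. Leaving out each replicate in turn gave 26 to 37 calls for testes against livers at 7.6 mo, 26 to 38 against brains (38 without brain 1303), 27 to 44 against lungs, 15 to 34 against livers at 12.8 mo (34 without testis 900, 30, 30 and 29 without a liver), 29 to 39 at 22.3 mo (38 and 39 without livers 829 and 831), 3 to 9 for ovaries against brains (8 or 9 without any brain or ovary 1325) and 2 to 6 against lungs (6 without any lung or ovary 1325). Fewer libraries are then needed to pass the filter. For fits without the filter or without 1 library, shares over all loci are not given here. Those counts describe the settings and are no result particular to the isolated loci. Uteri against ovaries gave 1 to 3, with 1 without ovary 1337, 1338 or 1324. Testes of 22.3 against 7.6 mo gave 0 to 3, of 7.6 against 1.9-3.6 mo 0 to 0, ovaries of 16.5 against 2.2-3.2 mo 0 to 2 (2 without ovary 1534, 0 without any other), female brains 0 to 1 and female against male brains 0 to 0.

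DESeq2 called 1 isolated locus in each comparison of testis ages and 0 in ovaries, where TMM on L1 reads also called 0. Of all loci, DESeq2 called 3 (7.6 against 1.9-3.6 mo) and 11 (22.3 against 7.6 mo) in testes. In ovaries it called 13 of all loci, and TMM called 0. With the animal as a replicate block, testes differed from lungs at 10 isolated loci (26.3% of all loci tested were called) and ovaries from brains at 4 (68.1%). Ovaries differed from lungs also at UID-6386 (43.9%), and uteri from ovaries at 2 of 7 tested (29.0%). The block moved no other count of calls by over 1.5 times. Against livers UID-137 lost its call at 12.8 mo with the block (adjusted p = 0.354 in edgeR), and at 22.3 mo UID-10141 lost its call (adjusted p = 0.0536). The block paired organs by labelled animal number. At 22.3 mo most of these numbers did not match the study's columns, so the pairing is less sure there. Joining the 22.3 mo columns by animal number, chosen after seeing the data, gave 26 calls against livers and 0 against testes of 7.6 mo.

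Counting only loci with more than 10 reads gave 34.3 per testis, 1 per liver, 4.67 per male brain and 3.5 per male lung of 7.6 mo, and 11.75, 3.67, 5.75 and 5.25 per ovary, uterus, female brain and female lung of 8-8.7 mo. Thinned to the shallowest library, loci with at least 1 read numbered 97.7, 18.6 and 18.9 in testes, male brains and male lungs and 34.7, 22.3 and 24.3 in ovaries, female brains and female lungs. Mates of a pair were treated as separate draws, so these thinned numbers are too high. Loci with more than 30 reads had median covered fractions of 0.425, 0.378 and 0.193 in testes, male brains and male lungs, and 0.580, 0.507, 0.532 and 0.293 in ovaries, uteri, female brains and female lungs. Relative to L1 reads, testes stood 17.5-fold over livers, 3.69-fold over brains and 13.7-fold over lungs. Without 1 library, the ratios of FPKM were 21.5 to 38.8, 8.62 to 11.1 and 5.06 to 6.52. Low depth limits most loci, which have few reads per library. The cause of the changes not set by the filter was not tested.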
